A study of Mus musculus with 16 samples.

Results

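The genes described here encode the inward rectifier potassium channels of the heart and the sulfonylurea receptors that join some of them. They were taken as the non-control array probes whose gene name is one of Kcnj2, Kcnj3, Kcnj4, Kcnj5, Kcnj8, Kcnj11, Kcnj12, Abcc8 and Abcc9. This gave 16 of 41174 probes on the array, for 9 genes. Probes counted as measured where 4 or more of the 16 arrays showed a signal well above background, and 13 of the 16 probes, at least 1 for each of the 9 genes, passed. Left ventricle was measured on one-colour Agilent arrays in 4 groups of 4 mice, each with 2 males and 2 females. The transgenic mice, called NOS3-TG here, carry nitric oxide synthase 3 under the alpha-MHC promoter, which is active in cardiomyocytes, and the WT mice were littermates. All groups share the C57BL/6 N background, reached by 7 generations of backcrossing, and were matched for age and weight, with no age stated in the labels. TAC is a surgical narrowing of the aorta that loads the left ventricle with pressure, and TAC hearts were taken after 10 weeks. Baseline mice are called control-intact rather than sham-operated in the labels, so constriction and the operation itself cannot be told apart. The tissue was a mid-ventricular ring, which holds all cell types of the wall, so that fewer cells of a type and less RNA per cell cannot be told apart.

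Inward rectifiers pass potassium more easily into the cell than out of it and hold the resting membrane potential near that of potassium. Kcnj2, Kcnj12 and Kcnj4 encode the subunits of the classical current that sets the resting potential of ventricular muscle and shapes the end of the action potential. Kcnj3 and Kcnj5 encode the paired subunits of the acetylcholine-activated current, which G protein beta-gamma subunits open after muscarinic or adenosine receptors are bound and which is best known from atrium and nodal tissue. Kcnj8 and Kcnj11 encode the pores of ATP-sensitive channels, which need a sulfonylurea receptor, encoded by Abcc8 or Abcc9, to reach the membrane and to sense nucleotides. Kcnj8 with Abcc9 is known from vascular smooth muscle and pericytes, and Kcnj11 with Abcc9 from ventricular muscle.

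Signals are given as a percent of the 75th percentile of the same array, so that 100% is the signal of a probe brighter than 75% of the others, and levels of different probes are not compared. The labels held up in the probes that check them. Nos3 read 194.9 to 274% in WT at baseline and 284.7 to 360.5% in WT after TAC, against 19810 to 26040% and 12310 to 21860% in NOS3-TG. Nppb, a natriuretic peptide gene of the loaded ventricle, read 1479 to 3120% in WT at baseline and 11690 to 21950% after TAC. In NOS3-TG it read 3404 to 6878% at baseline, above every WT baseline array, and 16050 to 23190% after TAC. All 10 cardiomyocyte markers examined passed the filter. From 50.6 to 55.8% of probes were well above background on 13 arrays. NOS3-TG baseline replicate 2 with 44.5%, NOS3-TG TAC replicate 3 with 46.2% and NOS3-TG TAC replicate 4 with 68.0% stood apart.

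Of the 9 genes, 7 had a promoter in the RefSeq table of build GRCm38.p6, and Kcnj11 and Abcc8 had no entry. The 250 bases before the start site are shown for the paired subunits Kcnj3 (chr2:55435720-55435969, plus strand) and Kcnj5 (chr9:32344345-32344594, minus strand), whose signals were both lower after TAC in WT, and for Abcc9 (chr6:142702275-142702524, minus strand) and Kcnj8 (chr6:142571615-142571864, minus strand), which lie next to each other and of which Abcc9 was called lower in WT and Kcnj8 was not, a difference that did not pass its own test. Capitals mark GGGCGG on either strand, CCGCCC being its reverse.
Kcnj3: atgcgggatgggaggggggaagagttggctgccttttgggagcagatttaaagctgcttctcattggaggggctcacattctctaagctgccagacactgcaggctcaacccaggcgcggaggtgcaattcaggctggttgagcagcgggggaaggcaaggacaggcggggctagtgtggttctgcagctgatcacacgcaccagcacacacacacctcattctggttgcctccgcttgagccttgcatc
Kcnj5: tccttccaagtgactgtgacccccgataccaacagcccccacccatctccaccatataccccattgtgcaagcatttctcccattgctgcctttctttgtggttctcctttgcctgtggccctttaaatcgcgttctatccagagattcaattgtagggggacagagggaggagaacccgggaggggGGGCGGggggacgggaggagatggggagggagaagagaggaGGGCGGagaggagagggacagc
Abcc9: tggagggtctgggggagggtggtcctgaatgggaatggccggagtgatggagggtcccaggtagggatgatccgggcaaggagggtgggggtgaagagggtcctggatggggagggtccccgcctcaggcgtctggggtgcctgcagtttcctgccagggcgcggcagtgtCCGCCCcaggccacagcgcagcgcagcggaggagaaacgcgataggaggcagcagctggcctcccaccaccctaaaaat
Kcnj8: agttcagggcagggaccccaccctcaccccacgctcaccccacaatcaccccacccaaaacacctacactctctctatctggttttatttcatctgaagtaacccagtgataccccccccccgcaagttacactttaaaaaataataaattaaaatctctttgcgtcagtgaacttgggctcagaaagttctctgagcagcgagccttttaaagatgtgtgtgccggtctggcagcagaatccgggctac
Both strands were searched for GGGCGG and also for CACGTG, for TATAAA, and for AGATAA, as well as for the MEF2 site and the CArG box, and no match overlapped another. GGGCGG was found in the windows of Kcnj5 and Kcnj2 (2 matches each), Kcnj4 (3 matches) and Abcc9 (1 match), and in 32.7% of the 32851 promoters of the same length. CACGTG was found once, in the window of Kcnj2, and in 6.02% of all promoters. The windows of Kcnj3, Kcnj8 and Kcnj12 held no match to any of the 6 motifs. The gene span of Kcnj3 begins at 55411798 and that of Kcnj12 at 61022564, upstream of the start sites used. The spans of Kcnj4, Kcnj5 and Abcc9 also reach upstream of theirs. Only the windows before the start sites used were searched. No match among the 7 genes was found to TATAAA (12.4% of all promoters hold one), to AGATAA (9.99%), to the MEF2 site (2.92%) or to the CArG box (1.47%).

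After TAC in WT, 5 of the 9 genes fell and none rose. Kcnj3 fell most, followed by Kcnj2, Kcnj5, Abcc9 and Abcc8, while Kcnj8, Kcnj11, Kcnj12 and Kcnj4 did not pass the test. The comparison asks how 10 weeks of pressure load changed the ventricle, and a call is an adjusted p under 0.05 in limma with Benjamini-Hochberg adjustment over all 15667 genes tested. Of all genes, 28.5% were called in this comparison, 10.9% higher and 17.6% lower, so a fall was common. The median log2 difference was -0.41 over the 9 genes and -0.06 over all genes, and 7 of the 9 were below zero. Baseline arrays lay on 2 slides and TAC arrays on the other 2, with both genotypes on each. In either genotype, differences between TAC and baseline therefore cannot be told apart from differences between slides. A random block for slide does not remove this. With it the same 5 genes were called, with adjusted p from 0.0011 for Kcnj3 to 0.0217 for Abcc8.

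**Figure D1:**
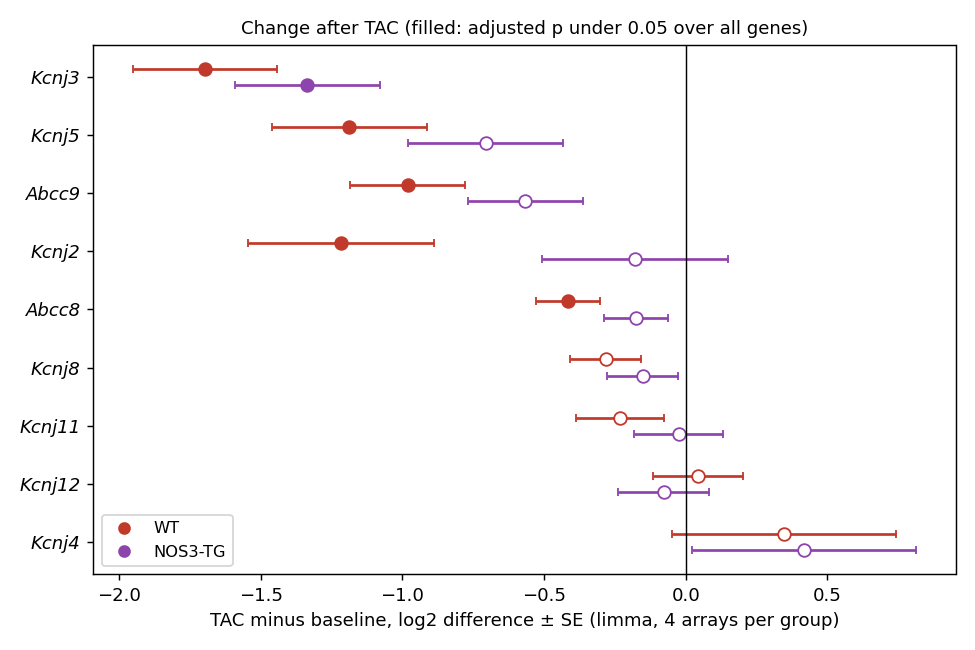
Log2 difference between TAC and baseline for each of the 9 genes (horizontal axis, mean ± SE from limma, 4 arrays per group) in WT (red) and NOS3-TG (purple), with filled points where the adjusted p over all genes was under 0.05. The 5 filled WT points lie between -1.70 and -0.41, and Kcnj3 at -1.34 is the filled NOS3-TG point.

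Kcnj3, the subunit that gives the acetylcholine-activated channel its high activity, was lower after TAC in both genotypes. Its probe lies on chromosome 2, 55598012 to 55598071, plus strand, in the coordinates of the array files, with the genome build not given in the sources used here. In WT it read 188, 196, 189.75 and 263% on the 4 baseline arrays and 54.7, 88.2, 81.9 and 42.1% on the 4 TAC arrays. Every TAC array lay below every baseline array, and the highest TAC value was under the lowest baseline value by a wide gap. The difference was -1.70 ± 0.26 on the log2 scale (SE, adjusted p = 0.000699), a fold of 0.309. In NOS3-TG the baseline arrays read 196, 156, 203 and 189.8% and the TAC arrays 48.6, 102, 88.0 and 66.8%. Here too the groups did not overlap, and the difference was -1.34 ± 0.26 (adjusted p = 0.00634).

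The other probes of Kcnj3 differed in what they could measure. The probe at 55596139 to 55596198 on the same strand read 41.3 to 51.4% in WT at baseline and 9.06 to 23.2% after TAC, and its log2 differences were -1.61 in WT and -1.11 in NOS3-TG (adjusted p = 0.000817 and 0.0147 over all probes). Its signal followed that of the first probe with r = 0.961 over 16 arrays that share their groups. The remaining probe, designed to an expressed sequence tag on the opposite strand, was not well above background on any array and measured nothing here.

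**Figure D2:**
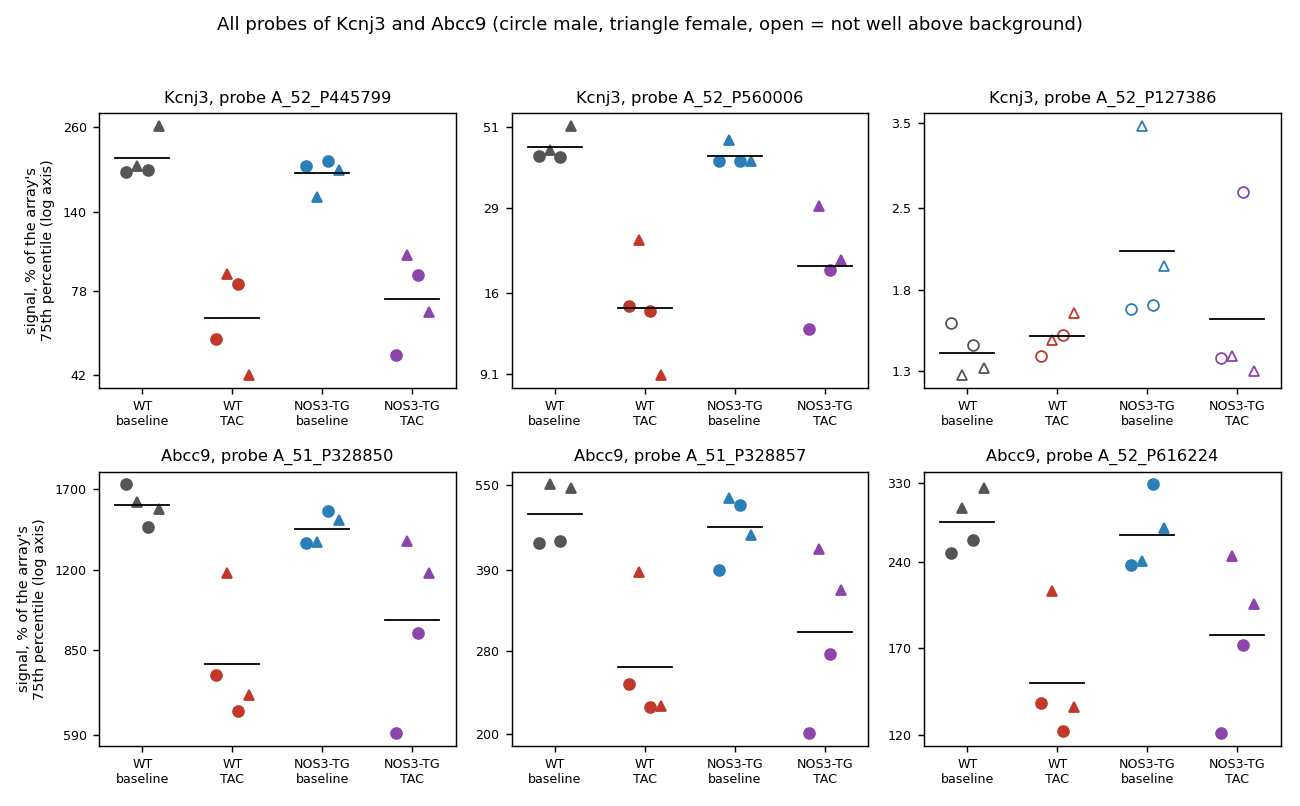
Signal of each probe of Kcnj3 and Abcc9 (vertical log axis, percent of the array's 75th percentile) on the 16 arrays by group, with the geometric mean of 4 arrays as a line, circles for males, triangles for females and open symbols where the probe was not well above background. The upper left and middle panels and the lower panels fall after TAC, and the upper right probe was not well above background on any of the 16 arrays.

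Kcnj5, the partner of Kcnj3, was dim and fell in WT. Its single probe (chromosome 9, 32225518 to 32225577, minus strand) read 14.4, 17.5, 16.2 and 10.8% at baseline and 7.72, 7.51, 6.61 and 4.27% after TAC, the last not well above background. All 4 TAC arrays were below all 4 baseline arrays, and the difference was -1.19 ± 0.27 (adjusted p = 0.00696). With normexp background correction the difference was -0.48 (adjusted p = 0.183), so that the call rests on how the background of this dim probe was removed. In NOS3-TG it read 17.6, 7.35, 12.9 and 13.7% at baseline and 5.86, 10.6, 6.91 and 7.57% after TAC, with 7.35% and 6.91% not well above background. The groups overlapped through that low baseline array, replicate 2, and the difference of -0.71 ± 0.27 did not pass (adjusted p = 0.113). Without NOS3-TG baseline replicate 2, which had the smallest share of probes above background, it was -0.95 (adjusted p = 0.033).

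Since these subunits are best known from atrium, the signals of atrial and conduction markers are given beside them. The labels give left ventricle, yet the summed signal of Myl7, Myl4 and Sln ranged from 79.3 to 21450% over the 16 arrays, and Bmp10 was not well above background on any. By group the sum ran from 85.1 to 21450% in WT at baseline, 82.7 to 7051% in WT after TAC, 79.3 to 17840% in NOS3-TG at baseline and 88.6 to 8306% in NOS3-TG after TAC. None of the 3 genes was called between TAC and baseline in limma, nor had any an unadjusted p under 0.05. All 3 lay below zero after TAC in both genotypes, with a median log2 difference of -0.99 in WT and -2.70 in NOS3-TG. Between the sexes all 3 were lower in females, with a median of -3.57, also without a call. With so wide a range, the lack of a call does not show equal levels. On the 6 arrays with a sum under 100%, Kcnj3 read 203 and 263% at baseline and 42.1 to 102% after TAC. On the 10 arrays with a sum above 1000%, it read 156 to 196% at baseline and 48.6 to 88.0% after TAC. The TAC arrays of the first kind were the 4 females and those of the second the 4 males, so that after TAC the split cannot be told apart from sex. This split was made after the signals were seen. With the mean atrial marker level as a covariate, also added after the data were seen, Kcnj3 differed by -1.72 in WT and -1.39 in NOS3-TG (adjusted p = 0.000877 and 0.00889) and Kcnj5 by -1.19 in WT (adjusted p = 0.00902). Of 6 conduction system markers, 4 were tested and none was called in either genotype, with summed signals of 454 to 804% in WT at baseline, 443 to 585% in WT after TAC, 491 to 683% in NOS3-TG at baseline and 311 to 575% in NOS3-TG after TAC. At an unadjusted p under 0.05 the count of these was 0 in WT and 1 in NOS3-TG (Tbx3). Shox2 and Isl1 were not well above background on any array.

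**Figure D3:**
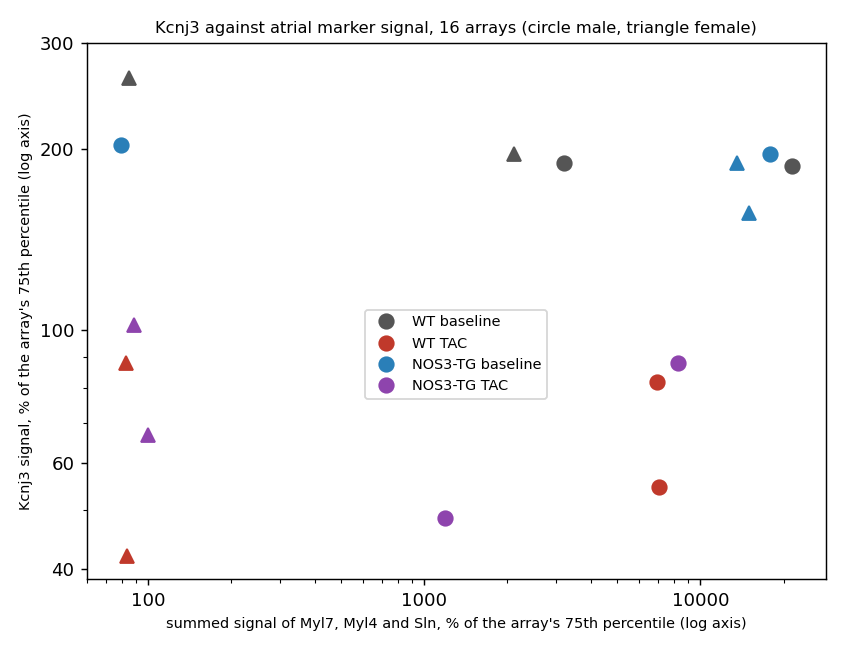
Kcnj3 signal (vertical log axis) against the summed signal of the atrial markers Myl7, Myl4 and Sln (horizontal log axis), both in percent of the array's 75th percentile, for 16 arrays coloured by group, circles male and triangles female. TAC arrays lie at or below 102% on the vertical axis and baseline arrays at or above 156%, at both ends of the horizontal axis.

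The receptors and G proteins that open the Kcnj3 and Kcnj5 channel were listed together with Rgs genes, which end G protein signals. Genes of this list moved in both directions. Of 24 listed genes 22 were tested, with 5 higher and 5 lower in WT after TAC, and 3 higher and 2 lower in NOS3-TG. Of all genes 10.9% were called higher and 17.6% lower in WT, and 6.48% and 5.36% in NOS3-TG. The median log2 difference of the list was 0.05 in WT and 0.02 in NOS3-TG. Chrm2, the muscarinic receptor of heart muscle, read 27.9 to 54.1% in WT at baseline and 14.1 to 26.3% after TAC, with no overlap, and it fell, with a log2 difference of -1.14 (adjusted p = 0.00346). In NOS3-TG its difference was -0.66 (adjusted p = 0.0815). Adora1, the adenosine receptor that uses the same channel, fell in both genotypes, with differences of -0.58 in WT (adjusted p = 0.013) and -0.78 in NOS3-TG (adjusted p = 0.00688). Both were lost with the smooth muscle marker level as a covariate, the first also with only the WT arrays in the fit and with the mean of all its kept probes, and the second without the 3 arrays that stand apart. Rgs7, which speeds the closing of G protein signals, fell in both, by -2.28 in WT and -1.83 in NOS3-TG on the log2 scale (adjusted p = 0.000621 and 0.00508), although it was well above background on only 1 of the 4 WT TAC arrays and 2 of the 4 NOS3-TG TAC arrays. With normexp background correction neither of these Rgs7 calls passed.

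Among the genes of this list that rose, Gnao1, an inhibitory-class G protein alpha subunit, led in WT. It read 37.6 to 65.1% at baseline and 106 to 175% after TAC, with no overlap, and rose by 1.49 (adjusted p = 0.000539). In NOS3-TG it rose by 1.01 (adjusted p = 0.0105), a call lost with scan day as a term and without the 3 arrays that stand apart. Gng13, a gamma subunit, rose by 0.93 in WT (adjusted p = 0.00904, lost with normexp background correction and with the smooth muscle covariate) and by 1.60 in NOS3-TG (adjusted p = 0.00121). In WT, Gng7 was called lower, but it was well above background on no WT TAC array and on 3 of the 4 WT baseline arrays. The size of its fall is therefore uncertain. It was 1.08-fold with TAC signals set no lower than the dimmest signal well above background on the array. The call was lost without WT TAC replicate 4 (adjusted p = 0.131) and under 7 other alternatives.

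Among the classical inward rectifiers, Kcnj2 fell in WT. Its probe (chromosome 11, 111183930 to 111183989, plus strand) read 90.0, 55.8, 55.2 and 40.6% at baseline and 18.9, 50.5, 23.2 and 17.4% after TAC. The difference was -1.22 ± 0.33 (adjusted p = 0.0156), and the groups overlapped, since TAC replicate 2 was above the lowest baseline array. The call ended without WT TAC replicate 4 (-1.01, adjusted p = 0.0576), with scan day as a term (-1.02, adjusted p = 0.0709) and with only the WT arrays in the fit (adjusted p = 0.0711). By sex, with 2 arrays a group and no test, the log2 difference was -1.75 in males and -0.68 in females. In NOS3-TG, Kcnj2 read 43.2, 33.3, 36.4 and 32.4% at baseline and 24.5, 46.2, 25.9 and 35.4% after TAC. Those groups overlapped, and the difference was -0.18 ± 0.33 (adjusted p = 0.768).

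The other subunits of the classical current gave no call after TAC. Kcnj12 read 86.0 to 163% in WT at baseline and 112 to 129% after TAC, a log2 difference of 0.04 ± 0.16 (adjusted p = 0.87), and -0.08 ± 0.16 in NOS3-TG (adjusted p = 0.795). Kcnj4 differed by 0.35 ± 0.40 in WT and 0.42 ± 0.40 in NOS3-TG (adjusted p = 0.55 and 0.527). Its SE, the largest among the 9 genes, came with opposite values in the sexes, untested and with 2 arrays a group. In females Kcnj4 was higher after TAC by 1.30 in WT and 0.97 in NOS3-TG, and in males the differences were -0.60 and -0.13.

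**Figure D4:**
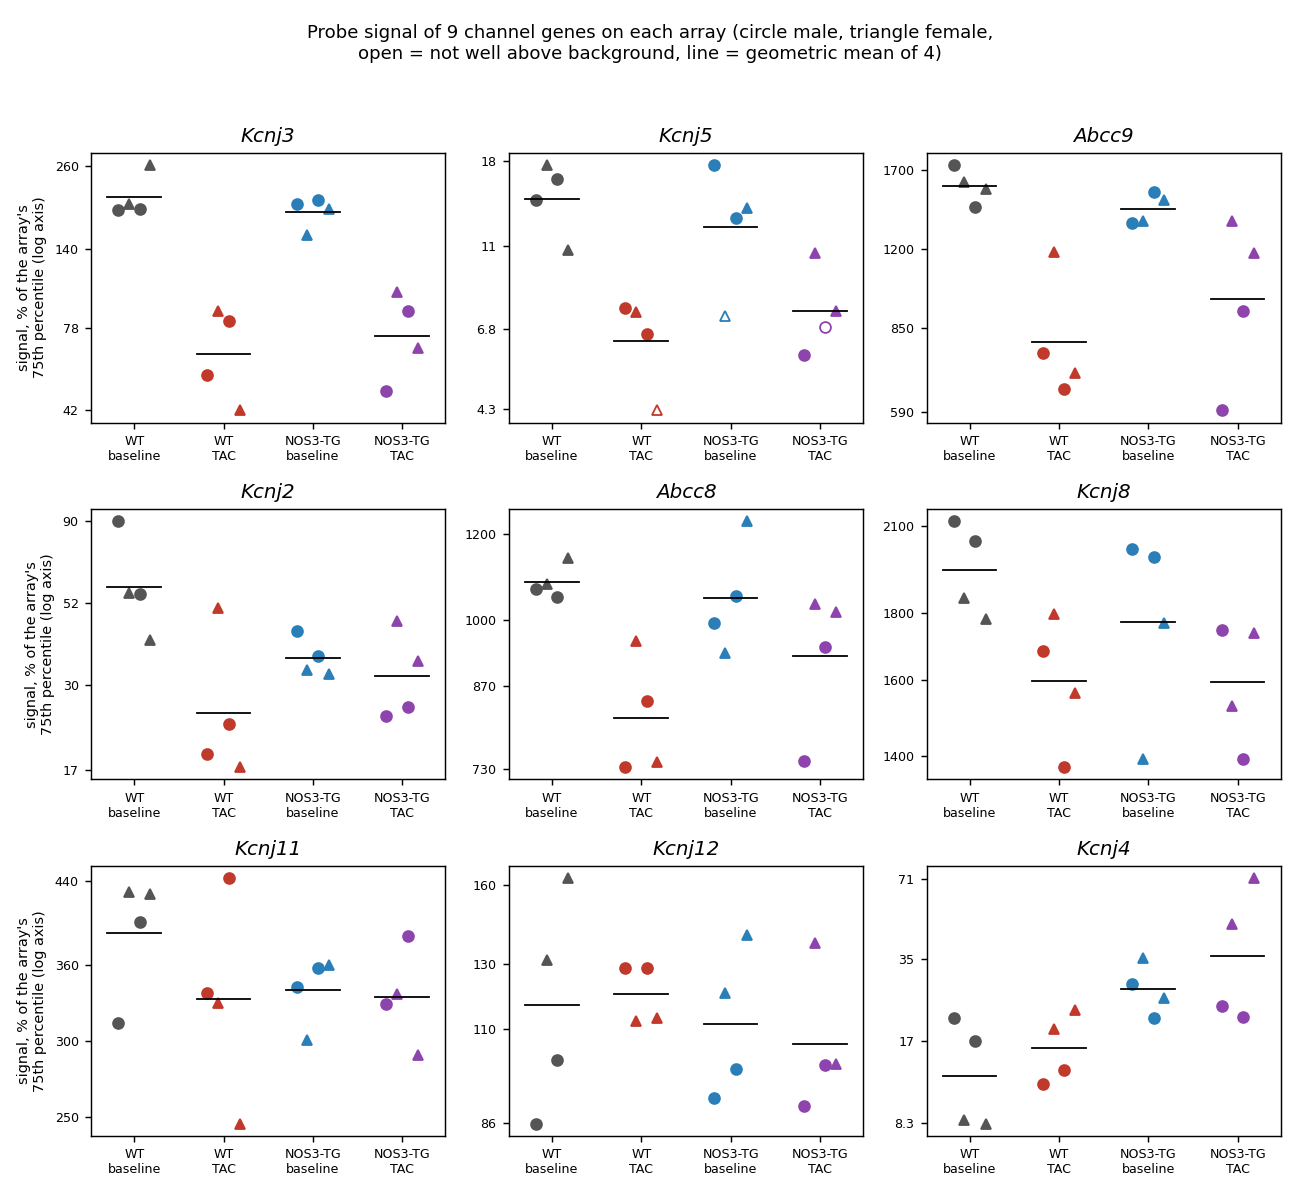
Signal of the 9 genes (1 panel each, vertical log axis, percent of the array's 75th percentile) on each of the 16 arrays by group, with the geometric mean of 4 arrays as a line, circles for males, triangles for females and open symbols where the probe was not well above background. In WT the TAC arrays lie wholly below the baseline arrays for Kcnj3, Kcnj5, Abcc9 and Abcc8, and for Kcnj4 the NOS3-TG baseline arrays lie above the WT baseline arrays.

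Of the ATP-sensitive channel genes, both receptors fell in WT and neither pore passed the test. Abcc9, the receptor of ventricular and vascular channels, read 1736, 1608, 1442 and 1562% at baseline and 762, 1185, 653 and 699.9% after TAC at the probe on chromosome 6, 142676908 to 142676967, minus strand. All TAC arrays were below all baseline arrays, and the difference was -0.98 ± 0.20 (adjusted p = 0.00393), a fold of 0.506. Its other 2 probes differed by -0.90 and -0.93 in WT (adjusted p = 0.00311 and 0.00342 over all probes), and the 3 probes followed one another over the 16 arrays with r from 0.963 to 0.974.

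In NOS3-TG, Abcc9 read 1346, 1355, 1543 and 1489% at baseline and 594, 1356, 916 and 1183% after TAC. One female TAC array lay within the baseline range, and the difference of -0.57 ± 0.20 did not pass (adjusted p = 0.0885). At its other probes it was -0.61 and -0.58 (adjusted p = 0.0419 and 0.063 over all probes), so that the probes lay on different sides of the threshold. By sex, untested, it was -0.97 in males and -0.17 in females.

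Abcc8, the receptor best known from pancreatic beta cells, fell less but with little spread. In WT its probe on chromosome 7 read 1069, 1079, 1051 and 1140.1% at baseline and 733, 956, 843 and 740.2% after TAC. The groups did not overlap, and the difference was -0.41 ± 0.11 (adjusted p = 0.0164), a fold of 0.75. Without WT TAC replicate 4 it was -0.34 (adjusted p = 0.0587). In NOS3-TG it read 993, 933, 1053 and 1232% at baseline and 741, 1036, 945 and 1017% after TAC, with overlap and a difference of -0.18 ± 0.11 (adjusted p = 0.339). The other Abcc8 probe was well above background on 1 of 16 arrays, so these values rest on a single probe.

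Neither pore passed the test after TAC, though Kcnj8 lay below zero in WT at both of its probes. Kcnj8, the vascular pore, read 2115, 1847, 2045 and 1782% in WT at baseline and 1685, 1797, 1373 and 1564% after TAC, with 1 TAC array just inside the baseline range and a difference of -0.28 ± 0.13 (adjusted p = 0.11). With array weights it was -0.35 and passed (adjusted p = 0.0206). Its second probe differed by -0.41 (adjusted p = 0.119 over all probes). In NOS3-TG the difference of Kcnj8 was -0.15 ± 0.13 (adjusted p = 0.466). Kcnj11, the pore of ventricular muscle, read 313 to 428% in WT at baseline and 246 to 443% after TAC, a difference of -0.23 ± 0.16 (adjusted p = 0.294), and -0.03 ± 0.16 in NOS3-TG (adjusted p = 0.937).

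Pores with receptors, pores with each other and the receptors with each other were compared within arrays, as 6 pairs of subunits in both genotypes, with 12 exact two-sided permutation tests over 4 against 4 arrays, whose smallest possible p is 0.0286. In WT the log2 signal of Kcnj8 minus that of Abcc9 was higher after TAC by 0.70 and that of Kcnj11 minus Abcc9 by 0.75, while Abcc9 minus Abcc8 differed by -0.57. In each of these 3 the groups did not overlap and the exact p was 0.0286, and after adjustment over the 12 tests none passed (adjusted p = 0.114). In NOS3-TG the groups overlapped in all 6 pairs, and the same 3 differences were 0.41 (exact p = 0.257), 0.54 (exact p = 0.114) and -0.39 (exact p = 0.0571). Kcnj3 minus Kcnj5 differed by -0.51 in WT (exact p = 0.171) and -0.63 in NOS3-TG (exact p = 0.0571). Kcnj2 minus Kcnj12 differed by -1.26 in WT (exact p = 0.0857) and -0.10 in NOS3-TG (exact p = 0.743), and Kcnj11 minus Kcnj8 by 0.05 and 0.13 (exact p = 0.857 and 0.514).

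Smooth muscle and pericyte markers are given beside the vascular genes. All 10 were tested. In WT after TAC 2 fell (Lmod1 and Myh11), where 17.6% of all genes were called lower. In NOS3-TG 3 fell (Lmod1, Myh11 and Smtn), where 5.36% of all genes were called lower. The summed signal of the 10 markers was 7084 to 10960% in WT at baseline, 5681 to 6965% in WT after TAC, 5681 to 7410% in NOS3-TG at baseline and 4645 to 6074% in NOS3-TG after TAC. With their mean level as a covariate, added after the falls were seen, Abcc9 differed by -1.03 in WT (adjusted p = 0.0222) and Kcnj2 by -0.999 ± 0.44 (adjusted p = 0.125), against -1.22 ± 0.33 without it. With the same covariate Kcnj8 differed by -0.15 ± 0.16 in WT (adjusted p = 0.542), against -0.28 ± 0.13 without it. In NOS3-TG the Kcnj8 difference was -0.01 ± 0.17 with it and -0.15 ± 0.13 without. The 3 calls of these markers in NOS3-TG were lost without the 3 arrays that stand apart. Cardiomyocyte markers had 2 of 10 lower in WT (Ckm and Pln, both lost without WT TAC replicate 4) and none called in NOS3-TG by limma (2 at an unadjusted p under 0.05), with sums of 224700 to 280900% in WT at baseline, 192700 to 257100% in WT after TAC, 206600 to 271400% in NOS3-TG at baseline and 192400 to 241800% in NOS3-TG after TAC. In WT 4 of 8 endothelial, 5 of 8 macrophage and 3 of 8 fibroblast markers were called higher and none lower. Of all genes 10.9% were called higher. Without WT TAC replicate 4 the calls of Pecam1, Col1a2, C1qb and Fcgr1 among these were lost, and without WT baseline replicate 1 that of Tie1. Another probe of Tek and 1 of the 2 others of Csf1r went the other way. The sums of these 3 lists in WT were 5199 to 5422% and 5937 to 6920% (endothelial), 1307 to 1427% and 1451 to 2130% (macrophage) and 16280 to 26000% and 20030 to 28520% (fibroblast) at baseline and after TAC. The corresponding NOS3-TG sums were 3754 to 5422% and 5122 to 6260%, 1971 to 2375% and 1933 to 2800%, and 17520 to 24640% and 19240 to 26490%. The part of these cell types in the falls of the channel genes was not tested, apart from the covariate given above.

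In NOS3-TG after TAC, Kcnj3 was the single call among the 9 genes, where 11.8% of all genes were called, 6.48% higher and 5.36% lower. The median over the 9 was -0.18 and over all genes -0.00, and 8 of the 9 were below zero. Without the 3 arrays that stand apart, all of them NOS3-TG, Kcnj3 differed by -1.51 (adjusted p = 0.0513), and no gene of the 9 was called. A fall called in WT and not in NOS3-TG is not shown to differ. The interaction of TAC and genotype gave no call by limma among the 9 or among all genes (0% of genes), and 1167 genes had an unadjusted p under 0.05. Among the 9 genes 1 did, Kcnj2, whose log2 response was 1.04 ± 0.46 higher in NOS3-TG (adjusted p = 0.664 in limma). For Kcnj5, Abcc9, Kcnj3 and Abcc8 the interaction was 0.48, 0.42, 0.36 and 0.24, with adjusted p from 0.737 to 0.815. The SE of these lay between 0.16 and 0.39, and a value above zero means a smaller fall in NOS3-TG.

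Between genotypes none of the 9 genes was called by limma, at baseline (0.415% of all genes called), after TAC (0.281%) or averaged over both conditions (2.07%), and at an unadjusted p under 0.05 the count was 1 in each, Kcnj4 every time. These 3 comparisons use the same 16 arrays. Kcnj4 read 20.8, 8.52, 17.1 and 8.26% in WT and 28.1, 35.5, 20.93 and 24.9% in NOS3-TG at baseline. All NOS3-TG baseline arrays were above all WT baseline arrays, the closest at 20.93 against 20.8%, and the difference was 1.09 ± 0.40 (adjusted p = 0.277). After TAC it read 11.7, 18.9, 13.2 and 22.4% in WT and 23.2, 47.5, 21.0 and 71.3% in NOS3-TG. The TAC groups overlapped by 1 array, and the difference was 1.16 ± 0.40 (adjusted p = 0.249).

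Averaged over both conditions, Kcnj4 was higher in NOS3-TG by 1.13 ± 0.28 (adjusted p = 0.0582), which missed the threshold. Within the 4 slides, each with 2 arrays of either genotype, the difference was 1.25, 1.16, 1.17 and 0.94. Each of these averages both sexes. At baseline males read 28.1 and 20.9% in NOS3-TG against 20.8 and 17.1% in WT, and females 35.5 and 24.9% against 8.52 and 8.26%. After TAC males read 23.25 and 21.0% against 11.7 and 13.2%, and females 47.5 and 71.3% against 18.9 and 22.4%. The genotype difference by sex was not tested. Over 31 alternative settings the difference averaged over conditions ranged from 0.61 to 1.37. It passed in 5, among them the authors' values (adjusted p = 0.0448), array weights (0.0374) and the data without WT baseline replicate 1 (0.0304). The lowest value, 0.61 with normexp background correction, had an adjusted p of 0.182. With the smooth muscle marker level as a covariate it was 1.37 (adjusted p = 0.261). In the same comparison 2.07% of all genes were called. There 3 of 8 macrophage markers were called higher in NOS3-TG, and 2 of 10 smooth muscle and pericyte markers were called lower, with all 10 below zero. The macrophage calls (Adgre1, Csf1r and Fcgr1) and that of Myh11 were lost without the 3 arrays that stand apart. Fcgr1 was also lost without NOS3-TG baseline replicate 4 (adjusted p = 0.0565), and Myh11 without WT TAC replicate 1 (adjusted p = 0.0526). The part of macrophages in the Kcnj4 difference was not tested. The second Kcnj4 probe was well above background on 3 arrays, all NOS3-TG, and was not kept.

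**Figure D5:**
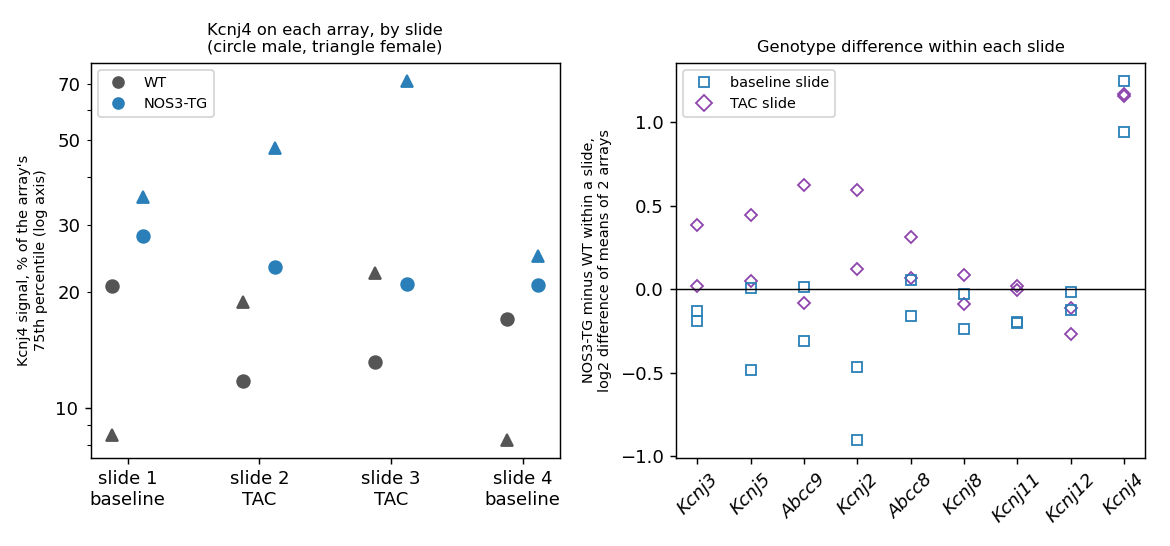
Left, Kcnj4 signal (vertical log axis, percent of the array's 75th percentile) on each array by slide and genotype, circles male and triangles female. Right, difference between NOS3-TG and WT within each slide (log2, means of 2 arrays) for the 9 genes, where the 4 values of Kcnj4 lie between 0.94 and 1.25.

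The other 8 genes differed by less between genotypes. Kcnj2 was lower in NOS3-TG at baseline by a log2 difference of -0.68 ± 0.33 (adjusted p = 0.42), with within-slide differences of -0.90 and -0.46, and after TAC the difference was 0.36 ± 0.33. For the remaining 7 the differences lay between -0.24 and 0.27 in both conditions. None of the 9 was called between the sexes by limma (1.33% of all genes called). At an unadjusted p under 0.05 the count was 1, Kcnj12, higher in females by 0.30 ± 0.11 (adjusted p = 0.205).

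Of the 8 other inward rectifier genes listed, 3 were tested. In WT after TAC 1 of them, Kcnj15, was called higher (adjusted p = 0.0108, lost with quantile normalization, normexp background correction and scan day as a term). No WT baseline array and only 2 of the 4 WT TAC arrays showed it well above background, so the size of its rise is uncertain. It was 1.22-fold with baseline signals set no lower than the dimmest signal well above background on the array. None was called in NOS3-TG by limma, with 1 of 3 at an unadjusted p under 0.05, Kcnj14 (1.13, adjusted p = 0.16). Kcnj1, Kcnj6, Kcnj9 and Kcnj16 were well above background on at most 1 array, and Kcnj13 had no probe.

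Genes that anchor inward rectifiers or make the phosphoinositide they need had 17 of 20 members tested. In WT after TAC 2 were higher and 3 lower, with a list median of 0.00, a share of calls close to the 28.5% of all genes. Ank2, an anchoring ankyrin, fell, with a log2 difference of -0.75 (adjusted p = 0.00439). Lin7b, a scaffold protein, differed by -0.74 (adjusted p = 0.00626), a call lost with normexp background correction. Pip4k2a, a phosphoinositide kinase, rose by 0.48 (adjusted p = 0.00368), and Pip5k1c, which makes the channel-opening phosphoinositide, rose by 0.39 (adjusted p = 0.0273), a call lost without WT TAC replicate 4 (adjusted p = 0.094) and under 3 other alternatives. None was called in NOS3-TG by limma, where 5 had an unadjusted p under 0.05. Averaged over conditions, NOS3-TG differed from WT in Lin7b by 0.50 (adjusted p = 0.0466), a call lost without NOS3-TG TAC replicate 2 (0.0904). Of the receptor and G protein list, Rgs4 differed by -0.60 in that comparison (adjusted p = 0.0252), lost without NOS3-TG baseline replicate 4 (0.0568). Lin7a, another scaffold protein, was higher in females by 0.59 (adjusted p = 0.0209), lost without NOS3-TG TAC replicate 2 (0.0519).

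Levels of the 5 genes called in WT were correlated over the 16 arrays, which share group and array quality. These 5 were picked because they fell on the same arrays, so a high r before group means are removed follows from that choice. The Pearson r of log2 level ran from 0.693 (Kcnj2 and Kcnj3) to 0.9 over their 10 pairs, and from 0.462 to 0.808 after group means and sex were removed. It was 0.9 for Abcc8 and Abcc9, 0.875 for Kcnj3 and Abcc9, 0.851 for Kcnj3 and Kcnj5 and 0.822 for Kcnj2 and Abcc9. After that removal these 4 were 0.725, 0.636, 0.518 and 0.784. Pairs with a gene not called ran from -0.669 (Kcnj4 and Kcnj11) to 0.738 (Kcnj11 and Kcnj12) after the same removal. High values were therefore not limited to the called genes. The genes most like each of the 5 called genes were searched among the 11997 other genes well above background on all arrays (11998 for Kcnj5). Among those most like Kcnj3 were Slc26a6 and Ccbe1 (r = 0.97 and 0.968), and Kcnj5 was nearest to Tcea3, Dhrs4 and Hsd17b4 (0.938, 0.936 and 0.933), and Kcnj2 to Rab18, Rhobtb3 and Arhgap5 (0.951, 0.947 and 0.94). Abcc9 was nearest to Kcnv2, Dcaf12l1 and AK037544 (0.969, 0.965 and 0.964), and Abcc8 to Asb15, Smyd3 and Slc5a6 (0.963, 0.955 and 0.938). After removal of group means and sex these r values lay between 0.785 and 0.929.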

How the data were processed

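Total RNA of left ventricle was hybridised to 16 one-colour arrays. The authors deposited spot intensity values, namely the processed signal after background subtraction, with no normalization between arrays. The scanner software was Agilent Feature Extraction 9.5.1.1, as the submitters' processing notes name it. A deposited table of log2 values covers 22057 probes. No source used here gives its normalization, its correlation with the processed signals on the log2 scale was at least 0.9996 on every array, and it served as an alternative.

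Spots of controls and spots called outliers were dropped, spots of a probe were averaged on the log2 scale, and each array's 75th percentile was subtracted. A probe was kept when well above background on at least 4 arrays, and a gene was read from its brightest kept probe. The model in limma 3.58.1 (R 4.3.3) had 4 group means and a sex term over 16 arrays, with Benjamini-Hochberg adjustment over 15667 genes within a comparison. The labels call the mice biological repeats, so the spread is between animals, and 4 arrays per group limit the precision. Groups came from genotype and stage in the labels. Tested on simulated data for WT after TAC, with 15508 genes of which 200 changed by 1 on the log2 scale, the fit recovered 76% of them, and 7.88% of its calls were false. The simulated noise was independent, without slide or array effects, and the share of changed genes was far below the share called here. These rates therefore need not hold for the real arrays. Figures used matplotlib 3.10.9 in Python 3.11.15.

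Gene names came from a RefSeq table for 22951 probes by accession and 9768 by symbol or synonym, and 8455 kept the file's name. The named genes are all 9 members, up to 4 called genes by size from each pathway list, and the 3 genes with the highest r for each called member. A few genes that this rule names are not reported here. Alternatives were the deposited log2 values, quantile normalization, normexp (offset 50), filters on 16 arrays or none, a gene's probes averaged or tested singly, array weights, an intensity trend, slide or scan day in the model, sex left out of it, fits on the compared groups, each array left out, and 3 arrays left out together. The members and lists were chosen with earlier results of these data known.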

Additional observations from a re-analysis of the deposited data

Results flagged for a closer look

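In WT at baseline, replicate 4, a female, read 263.1% for Kcnj3, while the other 3 arrays of the group read 187.5 to 195.9%. The gap to the nearest of them was 0.871 of the whole range of the group, above the limit of Dixon's test for 4 samples. It was the 1 value that stood out among 36 groups examined, 4 for each of the 9 genes, and chance gives about 1 in 20 groups. The second Kcnj3 probe was also highest on that array, at 51.4%, and the fall of Kcnj3 in WT was called without it (adjusted p = 0.00319 in limma).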

How the results depend on the processing

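No called fall changed direction under any alternative. The number of members called after TAC in WT was 3 to 5 when each array was left out, 3 without WT TAC replicate 4, and 4 to 6 under the other alternatives. In NOS3-TG it was 1 to 2 when each array was left out (2 without NOS3-TG baseline replicate 2), 3 with array weights (Kcnj5 and Abcc9 added, adjusted p = 0.0263 and 0.0499) and 0 without the 3 arrays with extreme shares above background. For NOS3-TG against WT averaged over conditions it was 0 to 1 when each array was left out, and 1 (Kcnj4) with the authors' values, the filter on all 16 arrays, array weights and the intensity trend. The other comparisons between genotypes, the interaction and the sexes gave 0 throughout. Of the falls in WT, Kcnj3 and Abcc9 passed under all alternatives tried, Kcnj5 under all in which it was tested but normexp background correction, Abcc8 in all but 1 and Kcnj2 in all but 4. The cause was not tested. Counts over all genes moved more: 4460 calls after TAC in WT became 2697 to 5852, and 1855 in NOS3-TG became 401 to 2817. With no filter on dim probes the median of all genes in NOS3-TG after TAC shifted to -0.15. Signal over background limits Kcnj5, well above it on 13 of 16 arrays, and with normexp background correction the fall of Kcnj5 in WT (-0.48) and the genotype difference of Kcnj4 (0.61) had their smallest sizes among the alternatives. No paired analysis was possible because the labels give each mouse its own number and no replicate number shared between groups.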
